A study of Mus musculus with 10 samples.

Results

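A set of 9 genes of hepatic glycogen metabolism were examined, chosen by symbol for their textbook roles from the 24421 genes listed: the liver glycogen synthase Gys2, the primer protein gene Gyg, the UDP-glucose pyrophosphorylase gene Ugp2, the branching enzyme gene Gbe1, the liver glycogen phosphorylase Pygl, the phosphorylase kinase subunit gene Phka2, and the phosphatase targeting subunit genes Ppp1r3b, Ppp1r3c and Ppp1r3g. All 9 of 9 were found in the count table and all 9 passed the filter on low counts. Their expression was measured by RNA sequencing of liver from 10 male C57BL/6 mice (C57BL/6J per the study's methods) aged 21 weeks, all fed ad libitum on standard chow. The Chow group (n = 5) received chow alone, and the TM5614 group (n = 5) received chow containing TM5614, an orally active small molecule inhibitor of plasminogen activator inhibitor-1 (PAI-1), at 20 mg/kg/day for 10 days. Each mouse gave 1 library, and levels are given as CPM, the counts of a gene scaled to a common library size after TMM normalisation. The comparison of the groups asks which hepatic transcripts differed after short-term inhibition of PAI-1, and the time of day of collection is not stated.

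Glycogen is the branched glucose polymer in which the liver stores glucose after a meal and from which it releases glucose in fasting. Glucose 6-phosphate is turned by way of glucose 1-phosphate into UDP-glucose, glycogenin primes a chain, glycogen synthase extends it and the branching enzyme adds branch points. Glycogen phosphorylase, switched on by phosphorylase kinase, removes glucose from the chain ends. Targeting subunits of protein phosphatase 1 bring the phosphatase to the glycogen particle, where it activates the synthase and inactivates the phosphorylase. Much of this control acts on enzyme activity, by phosphorylation and by glucose 6-phosphate, and is not visible in mRNA.

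None of the 9 genes passed an adjusted p of 0.05 in either direction (edgeR quasi-likelihood test, Benjamini-Hochberg adjustment over 11092 genes tested). Over all genes tested, 4.5% passed, 1.73% higher in TM5614 and 2.77% lower. At an unadjusted p under 0.05 there were 2 of 9, Phka2 and Pygl, both with lower means in TM5614, against 20.4% of all genes. DESeq2 called 1 of 9 (Phka2), against 8.11% of all genes, and limma-voom with sample quality weights called 2 of 9 (Phka2 and Gbe1), against 12.5%. The groups did not overlap in 1 of 9 genes (Phka2), against 8.93% of all genes. The median log2 fold change of the 9 genes was 0.06, with 5 estimates above 0 and 4 below, beside 0.01 over all genes tested. Their median absolute log2 fold change was 0.244, beside 0.221 over all genes tested. In bulk liver, fewer cells of a type and less RNA per cell cannot be told apart.

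**Figure D1:**
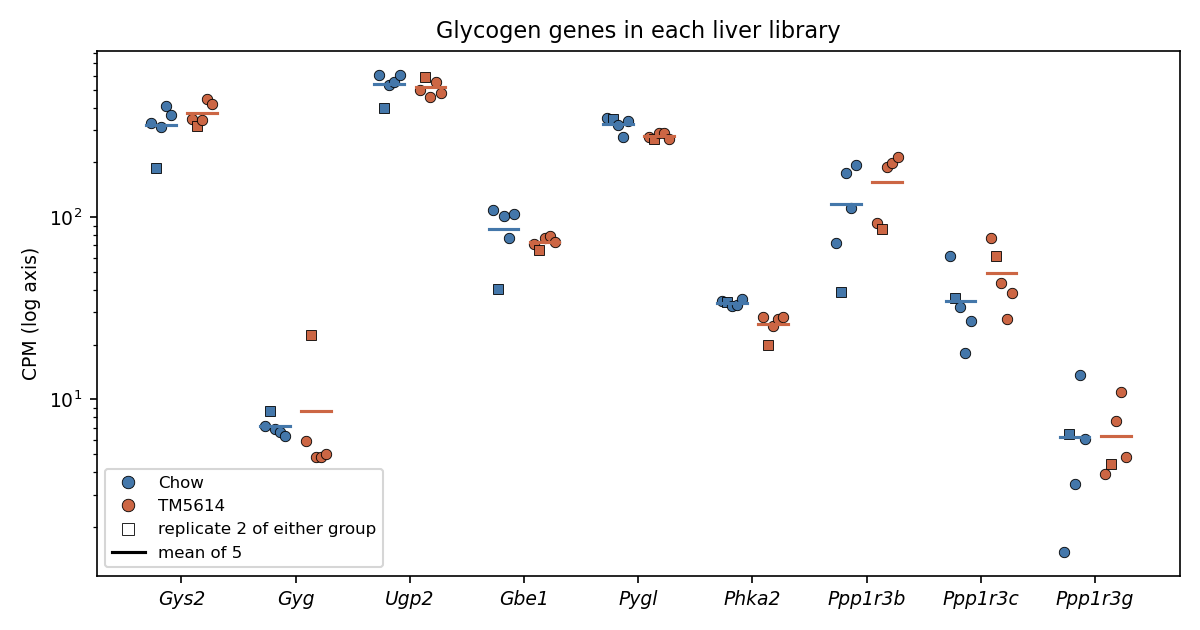
Level of each glycogen gene in each library, in CPM (log axis), for Chow and TM5614 (n = 5 each). Points are libraries, squares are replicate 2 of either group, and bars are group means. Phka2 is the gene whose groups do not overlap, and Gyg of TM5614 replicate 2 stands alone at 22.6 CPM.

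Total counts ranged from 6398335 (Chow replicate 4) to 10874955 (Chow replicate 2) per library. A pair of libraries stood apart. In Chow replicate 2, a trend with GC content and gene length accounted for 50.6% of the variance of its deviations from the median of all 10 libraries. In the other 9 it accounted for 0.738% to 13.1%. In TM5614 replicate 2, 14 skeletal muscle marker genes took 0.526% of the counts, against 0.000947% to 0.0104% in the other 9. The next highest was TM5614 replicate 3. Leaving out the markers Neb and Mylpf, the counts were 35945 in TM5614 replicate 2 and 714 in replicate 3. They were 3, 52 and 23 in TM5614 replicates 1, 4 and 5, and 0 to 5 in Chow. Where leaving out either replicate 2 library moved an estimate of the 9 genes by over 1.5 times, turned it or changed a call, the value without it is given as well. Albumin, the defining hepatocyte marker, ranged from 79068 to 98093 CPM in Chow and from 69452 to 85573 CPM in TM5614, and 0 of the 10 hepatocyte markers passed in edgeR (3 at an unadjusted p under 0.05, and 1 each called by DESeq2 and limma-voom). Of those markers, Ass1 had only 6 to 27 counts per library. Whether this reflects the livers or the counting was not tested.

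On a scale corrected for gene length (RPKM, CPM per kilobase of gene length), the Chow means fell into an order that ran from Ugp2 at 173 ± 27.0, through Gys2 at 120 ± 31.4 and Pygl at 115 ± 11.02, to Ppp1r3g at 2.68 ± 1.99 (SD, n = 5). Between them lay Gbe1 at 28.9 ± 9.60, Ppp1r3b at 27.9 ± 15.4, Ppp1r3c at 13.0 ± 6.04, Phka2 at 6.44 ± 0.232 and Gyg at 4.12 ± 0.537. The Chow ranges of neighbours in this order overlapped except between Pygl and Gbe1 and between Phka2 and Gyg. Within every Chow library, however, Ugp2 lay above Gys2 and Ppp1r3c above Phka2, so that overlap of ranges does not show equal levels. The other overlapping neighbours changed order between Chow libraries. In TM5614 the order of the means differed from this in Ppp1r3b at 36.8 ± 14.6 RPKM, above Gbe1 at 24.4 ± 1.73, and in Gyg at 4.98 ± 4.52, above Phka2 at 4.90 ± 0.664, and in both pairs the TM5614 ranges overlapped. The place of Gyg rested on TM5614 replicate 2, at 13.1 RPKM, since the other 4 TM5614 libraries were at 2.77 to 3.40 RPKM, each below every Phka2 value of the group. The genes for the sugar donor, the synthase and the phosphorylase were thus the most abundant of the set.

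Gys2 (chr6:142422613-142473109, minus strand, GRCm38) encodes the enzyme that lengthens the glycogen chain. Its level was 328, 186, 312, 410 and 366 CPM in Chow replicates 1 to 5 and 347, 319, 344, 448 and 418 CPM in TM5614 replicates 1 to 5. Chow replicate 2 was the lowest of all 10 libraries and the remaining values of the groups overlapped. The means were 320 ± 83.9 and 375 ± 55.1 CPM (SD, n = 5), a log2 fold change of 0.23 (SE 0.19, adjusted p = 0.507) with a 95% interval from -0.18 to 0.64. Without Chow replicate 2 the estimate was 0.08. Gys2 made up 95.6% to 99.7% of glycogen synthase mRNA per length in every library, the rest being the muscle form Gys1.

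Ugp2 (chr11:21321138-21371201, minus strand) encodes the enzyme that makes UDP-glucose, the sugar donor of the synthase. Its values were 603, 400, 534, 554 and 607 CPM in Chow and 501, 589, 455, 556 and 482 CPM in TM5614. The groups overlapped, with Chow replicate 2 again the lowest library of its group. The log2 fold change was -0.06 (SE 0.13, adjusted p = 0.807), and its 95% interval from -0.35 to 0.22 was narrower than those of all others but Pygl and Phka2. The estimate was -0.16 without Chow replicate 2, -0.12 without TM5614 replicate 2 and -0.21 without both, and did not pass in any of them (lowest adjusted p = 0.140).

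Gbe1 (chr16:70313949-70569716, plus strand) encodes the branching enzyme. It stood at 110, 40.3, 101, 77.2 and 105 CPM in Chow and at 71.1, 65.9, 77.2, 79.1 and 72.8 CPM in TM5614. In Chow, replicates 1, 3 and 5 lay above all TM5614 libraries, replicate 4 lay among them and replicate 2 lay below them. With all libraries the log2 fold change was -0.24 (SE 0.22, adjusted p = 0.552). Without Chow replicate 2 it was -0.43 (adjusted p = 0.0216), in a fit where 9.24% of all genes passed. Without both replicate 2 libraries it was -0.39 (adjusted p = 0.0319), and limma-voom, which gives each library a weight, gave -0.38 (adjusted p = 0.0377).

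Chow replicate 2 was low in 4 of the 9 genes. On the log2 scale its difference from the Chow median was -0.82 in Gys2, -0.47 in Ugp2, -1.33 in Gbe1 and -1.53 in Ppp1r3b, and the transcripts of these 4 genes have a GC content of 48.1%, 39.1%, 42.3% and 48.4%. In the other 5 genes it was between 0 and 0.32, with a transcript GC content from 45.2% in Pygl to 57.6% in Ppp1r3g. With GC content and gene length corrected in every library, the log2 fold change of TM5614 against Chow was 0.18 for Gys2, -0.28 for Ugp2, -0.37 for Gbe1 and 0.34 for Ppp1r3b, and none of these 4 passed.

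Gyg (chr3:20122084-20155317, minus strand) encodes glycogenin, the self-glucosylating primer. It was measured at 7.16, 8.68, 6.89, 6.65 and 6.26 CPM in Chow and at 5.89, 22.6, 4.82, 4.80 and 5.03 CPM in TM5614. TM5614 replicate 2, the library with the high share of skeletal muscle markers, lay above every Chow library, and the other 4 TM5614 libraries lay below every one. The counts behind these values were 42 to 90 in Chow, 174 in TM5614 replicate 2 and 41 to 49 in the other TM5614 libraries. The direction of the difference turned with that library: the log2 fold change was 0.26 (SE 0.42, adjusted p = 0.741) with all libraries and -0.48 (SE 0.16, adjusted p = 0.144) without TM5614 replicate 2. It was -0.40 without both replicate 2 libraries (adjusted p = 0.107).

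In the same library, genes of the muscle forms of glycogen metabolism were also high. The muscle phosphorylase Pygm had 1147 counts there and 3 to 30 in the other 9 libraries, and the muscle synthase Gys1 had 158 counts against 11 to 33. The muscle targeting subunit gene Ppp1r3a had 141 counts there, 0 to 4 in the other TM5614 libraries and 0 in every Chow library, where a floor of 3 counts stood at 0.276 to 0.475 CPM. Pygm made up 34.9% of phosphorylase mRNA per length in TM5614 replicate 2, whereas Pygl itself was at 270 CPM there, inside the range of its group. The part of the muscle transcripts in the Gyg value was not tested.

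**Figure D2:**
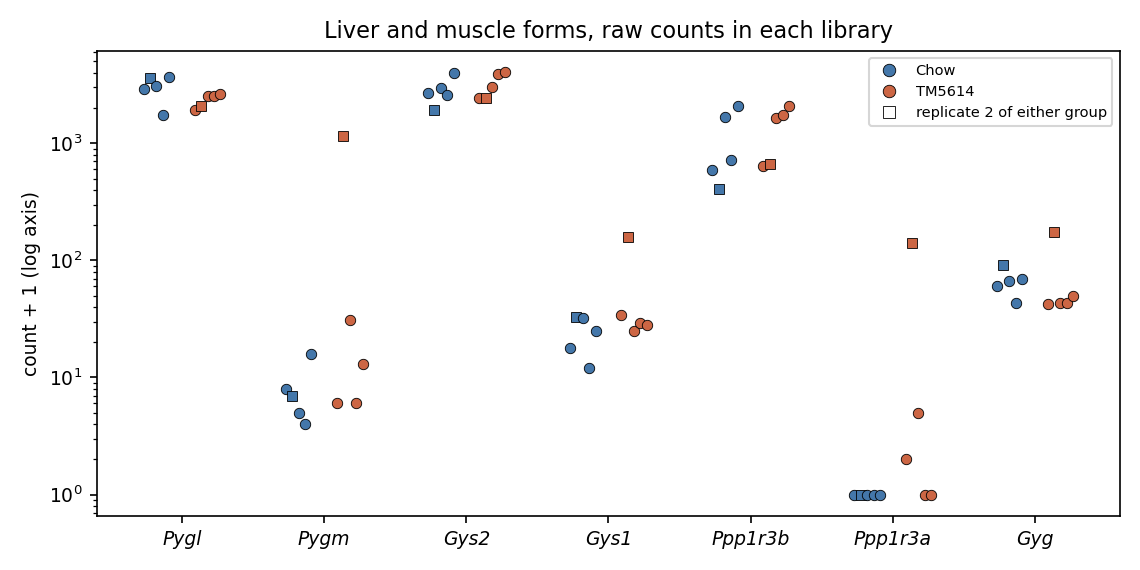
Counts plus 1 (log axis) in each library for the liver forms Pygl, Gys2 and Ppp1r3b, the muscle forms Pygm, Gys1 and Ppp1r3a, and Gyg. Points are libraries (n = 5 each for Chow and TM5614) and squares are replicate 2 of either group. TM5614 replicate 2 is far above the other libraries in the muscle forms and in Gyg, with 1147 counts of Pygm, and within range in the liver forms.

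Pygl (chr12:70190811-70231488, minus strand) encodes the enzyme that releases glucose 1-phosphate from glycogen. Its values were 351, 346, 323, 274 and 339 CPM in Chow and 276, 270, 289, 289 and 269 CPM in TM5614. Chow replicate 4 lay within the TM5614 range, and the other 4 Chow libraries lay above all TM5614 libraries. The means were 327 ± 31.3 and 278 ± 9.90 CPM (SD, n = 5), a log2 fold change of -0.23 (SE 0.10) with a 95% interval from -0.44 to -0.02. The unadjusted p was 0.0344 and the adjusted p 0.208 (edgeR), so that the difference was not called. Across the alternatives the estimate ran from -0.37 to -0.18, and the adjusted p from 0.0680 to 0.352.

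Phka2 (chrX:160502166-160598878, plus strand) encodes the liver form of the regulatory alpha subunit of phosphorylase kinase, the kinase that activates phosphorylase. It was measured at 34.6, 34.4, 32.4, 33.1 and 35.4 CPM in Chow and at 28.3, 20.0, 25.3, 27.5 and 28.2 CPM in TM5614. Every TM5614 library lay below every Chow library. The Chow values were close to each other, and TM5614 replicate 2 was the lowest. The means were 34.0 ± 1.22 and 25.9 ± 3.50 CPM (SD, n = 5), a log2 fold change of -0.39 (SE 0.11) with a 95% interval from -0.64 to -0.14.

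For Phka2 the unadjusted p was 0.00492 and the adjusted p 0.0803 in edgeR, which did not pass. DESeq2 gave an adjusted p of 0.0228 and limma-voom 0.0250. With GC content and gene length corrected, where 7.04% of all genes passed, edgeR gave -0.45 (adjusted p = 0.0216). Without Chow replicate 2 the adjusted p was 0.0367, and without both replicate 2 libraries 0.0242 at -0.31. The estimate was below 0 under all 21 alternatives, from -0.45 to -0.31, and passed in 5 of them, with adjusted p between 0.0216 and 0.193. The paralogue Phka1, the muscle form of the subunit, was at 5.85 CPM in Chow on average and did not pass (log2 fold change 0.69, adjusted p = 0.203, and 0.37, adjusted p = 0.362, without TM5614 replicate 2). Phka2 was 57.4% to 91.0% of the alpha subunit mRNA per length, the lowest share being that of TM5614 replicate 2, where Phka1 had 133 counts against 34 to 96 in the others.

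**Figure D3:**
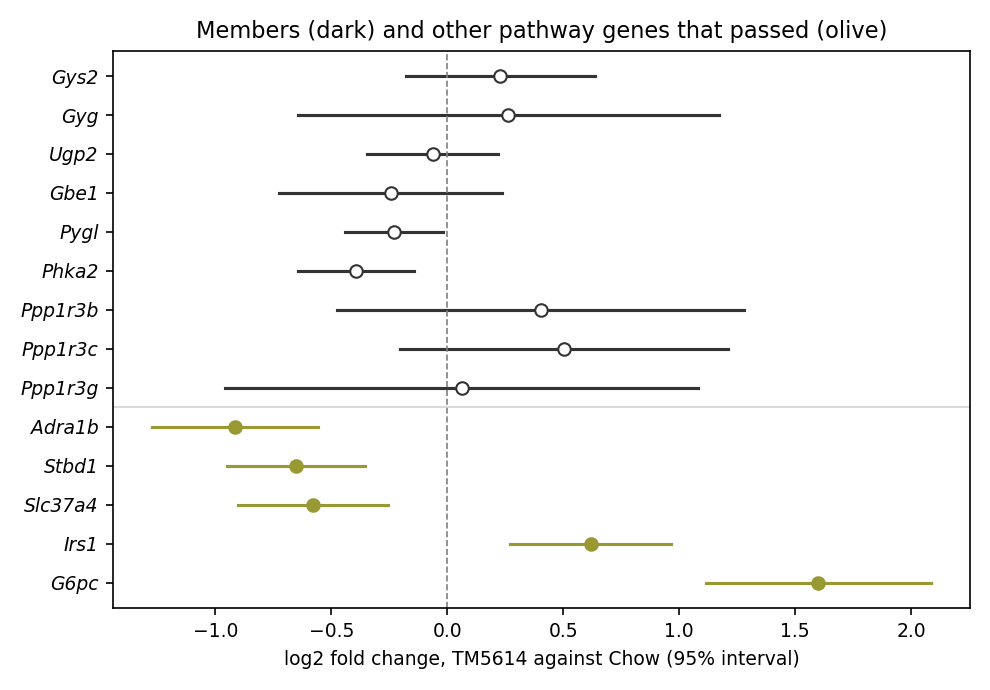
Log2 fold change of TM5614 against Chow (n = 5 each) with 95% intervals, for the 9 glycogen genes (dark) and for the 5 other pathway genes with an adjusted p under 0.05 (olive, filled). Open circles did not pass (edgeR). The intervals of Phka2 and Pygl lie below 0, from -0.64 to -0.14 and from -0.44 to -0.02, and those of the other 7 span 0.

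The 3 targeting subunit genes had the widest spread of the 9 genes between Chow mice, with coefficients of variation from 46.6% to 74.3%. In TM5614 they had 39.5% to 46.7%, below Gyg at 90.6% and above the other 5 genes. Ppp1r3b (chr8:35375739-35388139, plus strand) encodes the subunit known as G(L), the main one of liver, through which insulin promotes storage. It was measured at 71.8, 39.1, 174, 113 and 193 CPM in Chow and at 92.6, 86.0, 190, 200 and 214 CPM in TM5614. In both groups replicates 1 and 2 were the lowest. The highest Chow library was 4.94 times the lowest, and in TM5614 the ratio was 2.48. With means of 118 ± 65.5 and 156 ± 61.8 CPM (SD, n = 5), the log2 fold change was 0.40 (SE 0.40, adjusted p = 0.589), and the 95% interval ran from -0.47 to 1.28. The estimate was 0.17 without Chow replicate 2 and 0.65 without Chow replicate 5, which bound the values with 1 library left out.

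Ppp1r3c (chr19:36731731-36736653, minus strand) encodes PTG, a subunit present in liver, muscle and fat. It stood at 61.2, 36.2, 32.3, 17.9 and 26.8 CPM in Chow and at 77.4, 61.2, 43.5, 27.5 and 38.2 CPM in TM5614. In each group replicate 1 was the highest and replicate 4 the lowest, and the groups overlapped. At every replicate number the TM5614 value was above the Chow value, which was also so for Gys2 and Ppp1r3b. The means were 34.9 ± 16.3 and 49.6 ± 19.8 CPM (SD, n = 5). The log2 fold change was 0.50 (SE 0.33, adjusted p = 0.402), with a 95% interval from -0.21 to 1.21. With the replicate block edgeR gave 0.53 (SE 0.11, adjusted p = 0.0305). With the GC and length correction added it gave 0.43 (adjusted p = 0.0153). Ppp1r3c passed under no other alternative. The highest and lowest replicate numbers were also the same in both groups for Gys2, Ppp1r3b and Ppp1r3g. The labels do not tie the replicate numbers to a litter or day, so the numbers were not taken as a pairing.

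Ppp1r3g (chr13:35958839-35970388, plus strand) encodes a further glycogen-binding subunit of liver, whose mRNA is known to vary with feeding. It was at 1.46, 6.46, 3.45, 13.6 and 6.07 CPM in Chow and at 3.88, 4.41, 7.57, 10.97 and 4.82 CPM in TM5614, from 12 to 96 counts per library. Replicate 4 was the highest in each group and replicate 1 the lowest, and the highest Chow library was 9.36 times the lowest. The log2 fold change was 0.06 (SE 0.47, adjusted p = 0.951), and its sign turned when Chow replicate 1 (-0.20), Chow replicate 3 (-0.09), TM5614 replicate 3 (-0.01) or TM5614 replicate 4 (-0.23) was left out, so no direction can be given. The estimate was 0.09 without Chow replicate 2, 0.16 without TM5614 replicate 2 and 0.21 without both.

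Of the targeting subunit mRNA per length, Ppp1r3b made up 56.3% ± 18.6 in Chow and 59.1% ± 17.1 in TM5614, and Ppp1r3c 31.0% ± 18.5 and 32.0% ± 16.3 (SD, n = 5). Ppp1r3g took 6.496% ± 5.36 and 4.45% ± 1.81, and Ppp1r3e, another liver subunit gene, 5.92% ± 0.921 and 3.14% ± 0.667. The share of Ppp1r3b ranged from 33.9% to 74.7% within Chow, a wider spread than the difference between the group means. The shares of Ppp1r3e, from 4.46% to 6.86% in Chow and from 2.25% to 3.95% in TM5614, did not overlap. Its own level did, at 3.09 to 6.16 CPM in Chow and 2.75 to 4.02 CPM in TM5614. Each share depends on the other subunits too, and the means of Ppp1r3b and Ppp1r3c were higher in TM5614. The log2 fold change of Ppp1r3e was -0.51 and did not pass (adjusted p = 0.191, edgeR).

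Over the 10 libraries, with each gene centred on its group in log2 CPM, Ppp1r3c and Ppp1r3g had r = -0.88, and -0.91 without both replicate 2 libraries, the lowest of the 36 pairs of the 9 genes when those were left out. Mice with much Ppp1r3c mRNA had little Ppp1r3g mRNA in both groups. These points share library preparation and depth, and the values describe 10 libraries only. Other negative values also kept their sign without those libraries: Ppp1r3b and Ppp1r3c went from -0.60 to -0.69, Gyg and Ppp1r3b from -0.54 to -0.81, and Gys2 and Ppp1r3c from -0.51 to -0.78. Some of the highest and lowest values did not last. Gys2 and Gbe1 had r = 0.76, which became -0.42 without both replicate 2 libraries, and Gyg and Phka2, the lowest pair with all libraries, had r = -0.88, which became 0.25. Gys2 and Ppp1r3b had r = 0.75, and 0.30 without those libraries. Pygl and Gbe1 went the other way, from 0.03 to 0.98. Of the 36 pairs, 19 were above 0, with a median r of 0.01.

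**Figure D4:**
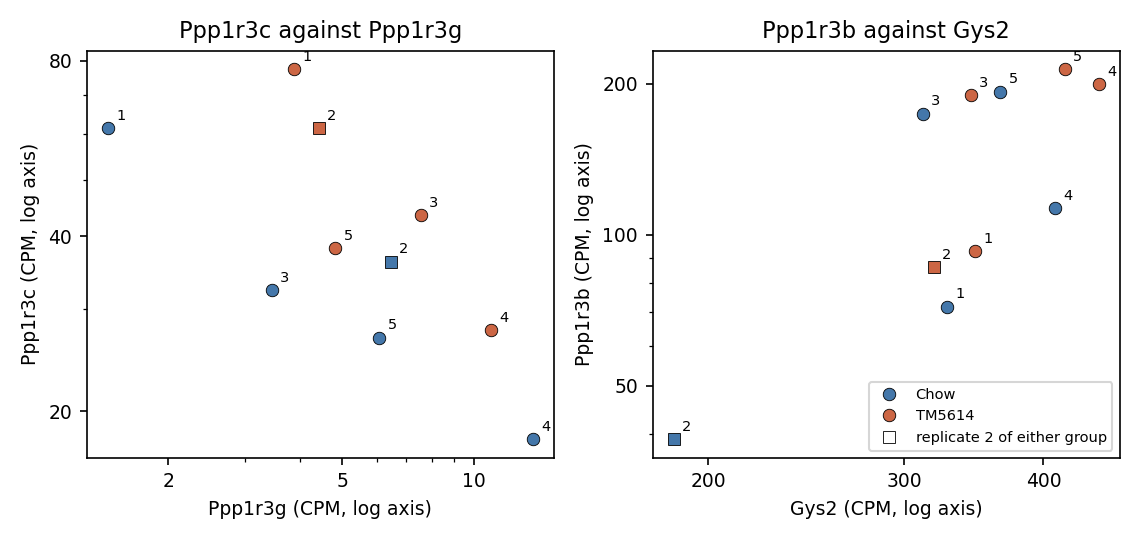
Left, Ppp1r3c against Ppp1r3g; right, Ppp1r3b against Gys2, both in CPM on log axes. Each point is a library with its replicate number, Chow and TM5614 n = 5 each, squares are replicate 2. Ppp1r3c is low where Ppp1r3g is high (r = -0.88 within groups), and the relation on the right fell from r = 0.75 to 0.30 without both replicate 2 libraries.

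The stretches upstream of the RefSeq start sites of this pair are shown because their mRNAs varied in opposite directions between mice. They are RefSeq promoter sequences on GRCm38.p6, from 153 to 54 bases before the annotated start, 5′ to 3′ on the strand of the gene, with capitals for an E-box (CACGTG), a motif bound by the clock factors CLOCK and BMAL1 and by other helix-loop-helix proteins. The first lies at chr19:36736658-36736757 on the minus strand and the second at chr13:35967753-35967852 on the plus strand. The RefSeq start lies 49 bases inside the GENCODE gene given above for Ppp1r3c and 9067 bases inside it for Ppp1r3g, so that the second stretch lies within the longer GENCODE gene.
Ppp1r3c: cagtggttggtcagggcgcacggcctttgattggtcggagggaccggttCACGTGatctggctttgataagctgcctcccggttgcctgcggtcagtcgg
Ppp1r3g: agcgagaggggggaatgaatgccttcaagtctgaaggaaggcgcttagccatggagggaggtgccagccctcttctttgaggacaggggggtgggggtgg

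Both strands of the 250 bases before the start were searched for 4 motifs in the 7 of 9 genes with an entry: the E-box CACGTG, found in 6.02% of all 32851 promoter windows of this length, the cAMP response element TGACGTCA (1.55%), the D-box TTANGTAA (2.06%) and the FOXO element TGTTTAC (3.17%). A single match was found, the E-box of Ppp1r3c, which begins 104 bases before the start. A match is a description of these letters and not a binding site.

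The other genes of the pathway were taken from 4 lists of 50 genes in all. As a background to their counts, 4.5% of all genes tested passed in edgeR, 8.11% in DESeq2 and 12.5% in limma-voom. An unadjusted p under 0.05 was reached by 20.4% in edgeR, and the groups did not overlap in 8.93%. Of 9 other genes of glycogen enzymes and handling, 8 were tested, and 1 was lower in TM5614 and 0 higher. That gene was Stbd1, whose product tethers glycogen to membranes on its way to the lysosome. Stbd1 was at 131, 177, 155, 161 and 143 CPM in Chow and at 85.2, 79.9, 91.9, 115 and 116 CPM in TM5614. Every TM5614 library lay below every Chow library. The log2 fold change was -0.65 (SE 0.14, adjusted p = 0.0182). It did not pass without TM5614 replicate 1 (-0.61, adjusted p = 0.0543) or without TM5614 replicate 3 (-0.63, adjusted p = 0.0648).

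Of 17 other genes of phosphorylase kinase subunits, phosphatase subunits and kinases, 11 were tested and 0 passed in edgeR, with 3 at an unadjusted p under 0.05. DESeq2 called 0 and limma-voom 1, Ppp1r3e, lower in TM5614. Of 10 genes for the entry and exit of glucose 6-phosphate, 8 were tested, and 1 was higher and 1 lower in TM5614. Of the 8 estimates, 1 was above 0 and 7 below, with a median log2 fold change of -0.48. At an unadjusted p under 0.05 there were 5 of 8, against 20.4% of all genes. DESeq2 called 1 higher and 1 lower, and limma-voom called 1 higher and 2 lower, Slc2a2 among the lower. G6pc, the catalytic subunit of glucose 6-phosphatase, the last step of glucose release, was at 168, 119, 253, 183 and 217 CPM in Chow. In TM5614 it was at 485, 375, 726, 700 and 566 CPM. Every TM5614 library lay above every Chow library. The difference was 3.03-fold, a log2 fold change of 1.60 (SE 0.22, adjusted p = 0.00185), and it passed under all 21 alternatives.

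Slc37a4, the transporter that brings glucose 6-phosphate to that enzyme, was lower in TM5614. It was at 172, 286, 254, 299 and 250 CPM in Chow and at 156, 145, 164, 186 and 192 CPM in TM5614. Chow replicate 1 lay among the TM5614 libraries, and the other 4 Chow libraries lay above all of them. The log2 fold change was -0.58 (SE 0.15, adjusted p = 0.0485), and it passed in 9 of 21 alternatives. It did not pass without Chow replicate 3, 4 or 5 or without any 1 of the TM5614 replicates, where it ran from -0.63 to -0.52 and the adjusted p from 0.0699 to 0.131.

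Of 14 genes of the hormone signals that act on glycogen, all 14 were tested, and 1 was higher and 1 lower. Adra1b, the alpha-1B adrenergic receptor through which catecholamines activate phosphorylase kinase in mouse liver, was at 31.7, 55.0, 44.3, 37.4 and 32.7 CPM in Chow. In TM5614 it was at 25.8, 21.5, 18.5, 20.5 and 20.5 CPM, below every Chow library. The log2 fold change was -0.91 (SE 0.16, adjusted p = 0.00799), and it passed under all 21 alternatives.

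Irs1, an adaptor of the insulin receptor, was at 33.8, 19.6, 31.4, 28.8 and 35.8 CPM in Chow and at 48.2, 39.3, 49.0, 52.1 and 41.0 CPM in TM5614. Every TM5614 library lay above every Chow library. The log2 fold change was 0.62 (SE 0.16, adjusted p = 0.0485). It did not pass without Chow replicate 1, 3 or 4 or without any 1 of the TM5614 replicates, where it ran from 0.57 to 0.67 and the adjusted p from 0.0520 to 0.136. The insulin receptor gene Insr and the glucagon receptor gene Gcgr did not pass.

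Of 12 genes that mark the phase of the circadian clock, listed because the time of collection is not stated, 11 were tested, and 2 were higher and 5 lower in TM5614. The groups did not overlap in 7 of the 11. Over all genes tested, 4.5% passed and 8.93% did not overlap. The log2 fold changes of the clock genes called were 2.76 (Arntl) and 0.98 (Clock) upward. Downward they ran from -2.27 (Per3) to -0.75 (Per1). The part of the clock genes in the values of the glycogen genes was not tested. Kupffer cell markers had 0 of 9 calls in edgeR, with all 9 estimates below 0 and 0 at an unadjusted p under 0.05, and 0 by DESeq2 and by limma-voom, and their summed level was 56.6 to 184 CPM in Chow and 61.0 to 120 CPM in TM5614. The markers of liver endothelium, stellate cells and cholangiocytes also had 0 calls by the 3 tools. At an unadjusted p under 0.05 they had 1, 1 and 0. Of their genes tested, 4 of 6, 6 of 6 and 3 of 3 had estimates above 0. The stellate cell gene was Des, with a log2 fold change of 4.47 (adjusted p = 0.0956, edgeR). It ranged from 1.47 to 4.63 CPM in Chow and from 2.15 to 258 CPM in TM5614. Of the 4 erythroid markers, 3 (Hba-a1, Hbb-bs and Hbb-bt) had 0 counts in every library. The other, Alas2, was at 39.1 to 88.5 CPM in Chow and 34.7 to 54.4 CPM in TM5614. Whether the 0 counts reflect the livers or the counting was not tested.

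**Figure D5:**
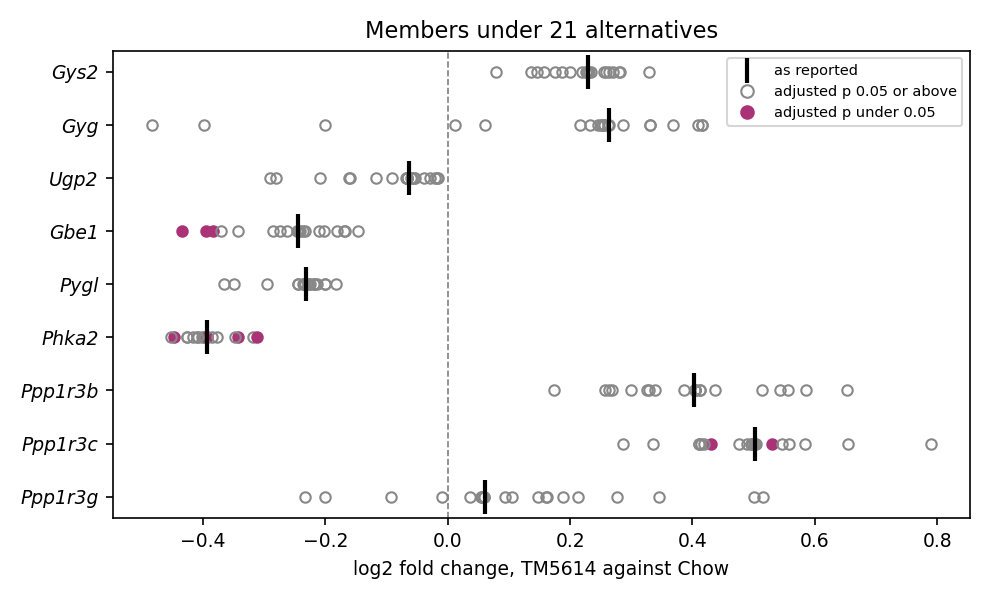
Log2 fold change of each glycogen gene under the 21 alternatives (circles) and as reported (bar), TM5614 against Chow. Filled circles have an adjusted p under 0.05. Phka2 stays between -0.45 and -0.31 and passes in 5, Gbe1 passes in 3 and Ppp1r3c in 2, while Gyg and Ppp1r3g fall on both sides of 0.

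The median coefficient of variation over all genes tested was 23.9% in Chow and 13.4% in TM5614, and 5 of 9 glycogen genes in Chow and 6 of 9 in TM5614 lay above it. The 95% intervals left room for a fold change of up to 1.55 for Gys2, 2.43 for Ppp1r3b and 2.31 for Ppp1r3c in the upward direction. For Gbe1 the lower bound was 0.605-fold. For Ugp2 the interval ran from 0.787-fold to 1.16-fold.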

How the data were processed

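Poly(A) RNA libraries of 10 livers were sequenced as single-end reads. Per the study's methods and the submitters' processing notes, the authors aligned reads with STAR to mm10 and counted them per gene, naming HOMER and DESeq2 as further tools. Annotation, versions and use of strand are not given in the sources used here, and reads of overlapping genes on opposite strands cannot be told apart. The authors deposited raw counts per gene symbol, used for all tests. They also deposited FPKM values, used only for gene lengths, and regularised log2 values and their own comparison (fold changes and p-values), not used here.

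Libraries were matched to groups by the mouse number in the labels. Genes were kept with filterByExpr, scaled with TMM and tested with edgeR 4.0.16 in R 4.3.3 (quasi-likelihood, two-sided, no block, threshold 0.05). CPM and RPKM are counts scaled by TMM library size and, for RPKM, by length. Counts of the 20 within-group pairs of libraries differed by a chi-square of at least 7.50 per degree of freedom, so each library counts as 1 sample. Alternatives were DESeq2 1.42.0, limma-voom (limma 3.58.1), RLE, upper-quartile and total scaling, other filters, the replicate block, a correction for GC content and length (a spline with 5 degrees of freedom; 96.7% of tested genes had a GC content), an adjusted p of 0.01, and libraries left out. Tested on simulated data with 200 of 11007 genes changed by a log2 change of 1, edgeR recovered 63.5%, with 4.51% of 133 calls false; DESeq2 recovered 78.0%, with 13.3% of 180 false. Intervals cover the spread between mice, and floors counting error only.

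Members are named with every value, and other list genes where they passed or share a role with a member. Some list genes are not reported here. Members and lists were chosen with earlier results of these data known. Coordinates are from GENCODE M21.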

Additional observations from a re-analysis of the deposited data

Results flagged for a closer look

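In 38 groups of 5 libraries (19 measures in each of the Chow and TM5614 groups), the library farthest from the rest was set against Dixon's 95% critical value of 0.71 for the gap over the range, which chance passes in about 1 of 20 groups, or 1.9 here. It was passed in 6, all of them TM5614 replicate 2. The measures were not drawn at random, and included Gys1, Phka1, Ppp1r3a, Pygm and the share of skeletal muscle markers. These are muscle measures in which TM5614 replicate 2 stands apart, so the 6 cannot be weighed against the 1.9. In that library Gyg was at 22.6 CPM (4.80 to 5.89 in the other TM5614 libraries), Gys1 at 20.5 CPM (2.75 to 4.74), Phka1 at 17.3 CPM (7.11 to 8.57), Ppp1r3a at 18.3 CPM (0 to 0.459) and Pygm at 149 CPM (0.571 to 3.44). Skeletal muscle markers took 0.526% of its counts (0.00148% to 0.0104% in the others). These 6 values are from 1 library and are not independent. Their cause was not tested.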

How the results depend on the processing

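Against 0 of 9 glycogen genes called and 499 genes in all, DESeq2 called 1 and 900, limma-voom 2 and 1386, and the GC and length correction 1 and 781. Without both replicate 2 libraries 2 and 1230 were called, and at an adjusted p of 0.01 there were 0 and 184. Leaving out 1 library gave 0 to 2 glycogen genes, both of the 2 without Chow replicate 2, and 235 to 1031 genes in all; the count in all moved by over 1.5 times without Chow replicate 2 (1031) or 3 (293) and TM5614 replicate 1 (331), 3 (235) or 4 (259). Of the other pathway genes 5 were called, 9 with limma-voom, 3 with no filter, 8 without both replicate 2 libraries, 2 at an adjusted p of 0.01 and 2 to 8 with 1 library left out. The other scalings and filters left the count of glycogen genes at 0.

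The groups share replicate numbers, which the labels do not tie to a litter or day. Same-numbered libraries deviated together with r from 0.0316 to 0.318, over 0.1 in 3 of 5 pairs, and 1 of 5 Chow libraries correlated best with its own number, so the numbers were not taken as a pairing. With the replicate block 1 glycogen gene was called (Ppp1r3c, 0.53, adjusted p = 0.0305) of 555 genes in all, and with the block and the GC and length correction 1 (Ppp1r3c, 0.43, adjusted p = 0.0153) of 807. The block lowered the SE from 0.33 to 0.11 for Ppp1r3c and from 0.40 to 0.16 for Ppp1r3b (0.51, adjusted p = 0.113, edgeR). It raised the SE for Pygl, Ugp2 and Phka2 and lowered it for the other members.

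The estimate of Gyg turned from 0.26 to -0.20 with limma-voom, -0.48 without TM5614 replicate 2 and -0.40 without both replicate 2 libraries, and ran from -0.48 to 0.42 with 1 library left out. That of Ppp1r3g turned from 0.06 to -0.20 and -0.09 without Chow replicate 1 or 3, and to -0.01 and -0.23 without TM5614 replicate 3 or 4, with a range from -0.23 to 0.52. Beyond the libraries named, the cause was not tested.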
